A study of Mus musculus with 12 samples.

Results

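A set of 10 genes of the extracellular matrix, listed by symbol, was followed across kidney RNA and a pooled reference RNA of the mouse: the matricellular genes Postn, Sparc, Thbs1 and Tnc, the cross-linking enzymes Lox, Loxl1 and Loxl2, and the matrix glycoproteins Fn1, Fbln2 and Fbn1. Their probe sets were found by gene symbol in the platform annotation. Of the 10 genes, 8 had at least 1 probe set that named the gene alone, out of 18193 genes on the array, with 17 such probe sets in all, out of 45101. All 8 passed the filter on low signals, as did 13 of the 17 probe sets. Loxl2 was named by 2 probe sets that also named Gm21451, and Thbs1 by 1 further probe set that also named Pald1; these 3 are given as shared and assigned to neither gene. No probe set listed in the annotation used here named Fbn1, so Fbn1 has no value below.

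The study set amplification methods for nanogram amounts of RNA beside each other, and the sample names hold a code, pRS, that is not explained in the labels. The 12 arrays formed 4 groups of 3: mouse kidney RNA (Ambion) at an input of 10 ng, and Universal Mouse Reference RNA (supplier given as Strategene) at 0.3, 3 and 10 ng. Commercial reference RNA of this kind is a pool from cell lines, so it stands for cultured cells of several origins and not for a tissue. The labels give no strain, sex or age for the kidney RNA and do not say whether the 3 arrays of a group came from separate extracts or separate amplifications of 1 tube, so a p-value here covers only array-to-array spread, which may be technical.

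Matricellular proteins are secreted into the matrix but serve less as scaffold than as regulators of how cells attach, move and respond to growth factors. They are typically made in quantity by mesenchymal cells during development and repair. Lysyl oxidases work on the scaffold itself: they oxidise lysines in collagen and elastin, and the products react with each other to form the cross-links that stiffen fibres. Fibronectin is the provisional mesh on which collagen and fibulins are laid down, and fibrillin-1 builds the microfibrils of elastic fibres. In the healthy adult kidney these proteins belong chiefly to the glomerular mesangium, vessel walls and the thin interstitium, while most of the tissue is tubular epithelium.

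The 8 measured genes all differed between kidney and reference RNA in the same direction, and some promoters of the set are shown here. A link between promoter sequence and that direction was not tested. Promoters of 5 of the 10 genes were taken from the RefSeq table used (GRCm38.p6). Lox was left out of this lookup, so the 5 is not a count over all 10 genes. Of the 5, 4 are printed, each as the 250 bases before a start site, 5′ to 3′ on the strand of the gene. The promoter of Fbn1, which has no signal value here, is not printed. Capitals mark matches, on either strand, to 3 motifs picked after these sequences had been seen: TATAAA (the TATA box), TGANTCA (the AP-1 site) and GGGCGG (the GC box), none of which overlapped another. Sparc lies at chr11:55420081-55420330 (minus strand), Tnc at chr4:64047016-64047265 (minus strand, the upstream of 2 listed starts), Postn at chr3:54360857-54361106 (plus strand, the downstream of 2 listed starts) and Fbln2 at chr6:91212514-91212763 (plus strand).
Sparc: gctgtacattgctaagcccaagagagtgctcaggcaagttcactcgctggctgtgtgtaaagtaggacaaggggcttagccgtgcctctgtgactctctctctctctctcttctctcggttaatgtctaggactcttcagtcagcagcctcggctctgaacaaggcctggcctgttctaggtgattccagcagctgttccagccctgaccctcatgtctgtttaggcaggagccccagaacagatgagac
Tnc: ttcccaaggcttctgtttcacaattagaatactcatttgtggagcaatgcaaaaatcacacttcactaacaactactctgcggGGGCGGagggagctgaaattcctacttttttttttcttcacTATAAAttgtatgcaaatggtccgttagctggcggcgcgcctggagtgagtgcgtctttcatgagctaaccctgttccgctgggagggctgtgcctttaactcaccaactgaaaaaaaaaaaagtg
Postn: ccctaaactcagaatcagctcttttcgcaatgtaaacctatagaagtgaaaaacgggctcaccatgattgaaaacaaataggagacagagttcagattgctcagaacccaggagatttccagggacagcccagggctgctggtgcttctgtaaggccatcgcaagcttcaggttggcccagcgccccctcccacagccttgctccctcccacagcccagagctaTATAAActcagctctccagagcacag
Fbln2: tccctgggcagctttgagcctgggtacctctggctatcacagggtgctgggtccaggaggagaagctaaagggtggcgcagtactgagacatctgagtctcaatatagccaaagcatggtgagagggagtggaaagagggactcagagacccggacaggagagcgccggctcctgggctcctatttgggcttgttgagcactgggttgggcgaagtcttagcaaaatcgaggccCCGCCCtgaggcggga
The Postn promoter had a TATA box whose first base lay at -26 from the start site, while the window of its other listed start held none of the 3 motifs. In Tnc a match to TATAAA began at -126 and a match to GGGCGG at -167, or at -205 and -246 from its other listed start. The TATAAA match thus lay farther from either Tnc start than the one in Postn, and it is not called the TATA box of Tnc here. Fbln2 had a GC box on the reverse strand at -16, and the Sparc window held none of the 3 motifs. Over all 32851 promoters cut to the same length, 12.4% held TATAAA, 6.7% TGANTCA and 32.7% GGGCGG on either strand. A match is a description of letters and not a binding site.

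Signals are in array units, on a scale where the 2% trimmed mean of every array is 500, and a level of 33.7, set by Bacillus control probe sets that match no mouse RNA, is called background here. The median signal of an array was 56.6 to 59.6 in kidney RNA, and in reference RNA 47.5 to 53.2 at 0.3 ng, 70.1 to 78.3 at 3 ng and 67.9 to 71.2 at 10 ng. The lowest correlation between arrays of a group was 0.955 in kidney, 0.827 at 0.3 ng, 0.942 at 3 ng and 0.963 at 10 ng. The ratio of the 3′ to the 5′ control probe set of actin, a sign of how far back from the 3′ end RNA was copied, was 5.25 to 5.50 in kidney, 3.78 to 3.96 at 0.3 ng, 3.47 to 3.92 at 3 ng and 3.62 to 3.94 at 10 ng. The same ratio for GAPDH overlapped between kidney, 1.12 to 1.13, and the reference at 10 ng, 1.10 to 1.15. The part of these array differences in the gene results was not tested.

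All 8 genes were lower in kidney than in the reference at an equal input of 10 ng, by 2.04-fold (Sparc) to 21.5-fold (Lox) as ratios of mean signals, Fbln2 included at 16.5-fold although 1 of its kidney arrays lay below background. In limma's test 8 of 8 were called lower at an adjusted p under 0.05, where 35.6% of the 12820 genes tested were lower and 27.1% higher. Every kidney array lay below every 10 ng reference array for each of the 8, a pattern seen in 41.5% of genes. The median log2 fold change of the 8 was -2.08, beside -0.19 over all genes tested. The genes differed in size of change: Fn1, Lox and Fbln2 had log2 fold changes of -4.38, -4.50 and -4.54 (Fbln2 -3.70 with its dim kidney array raised to background), Tnc had -2.31, and Loxl1, Thbs1, Postn and Sparc between -1.84 and -1.03. In bulk RNA, fewer cells that make a transcript and less of it per cell cannot be told apart.

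**Figure D1:**
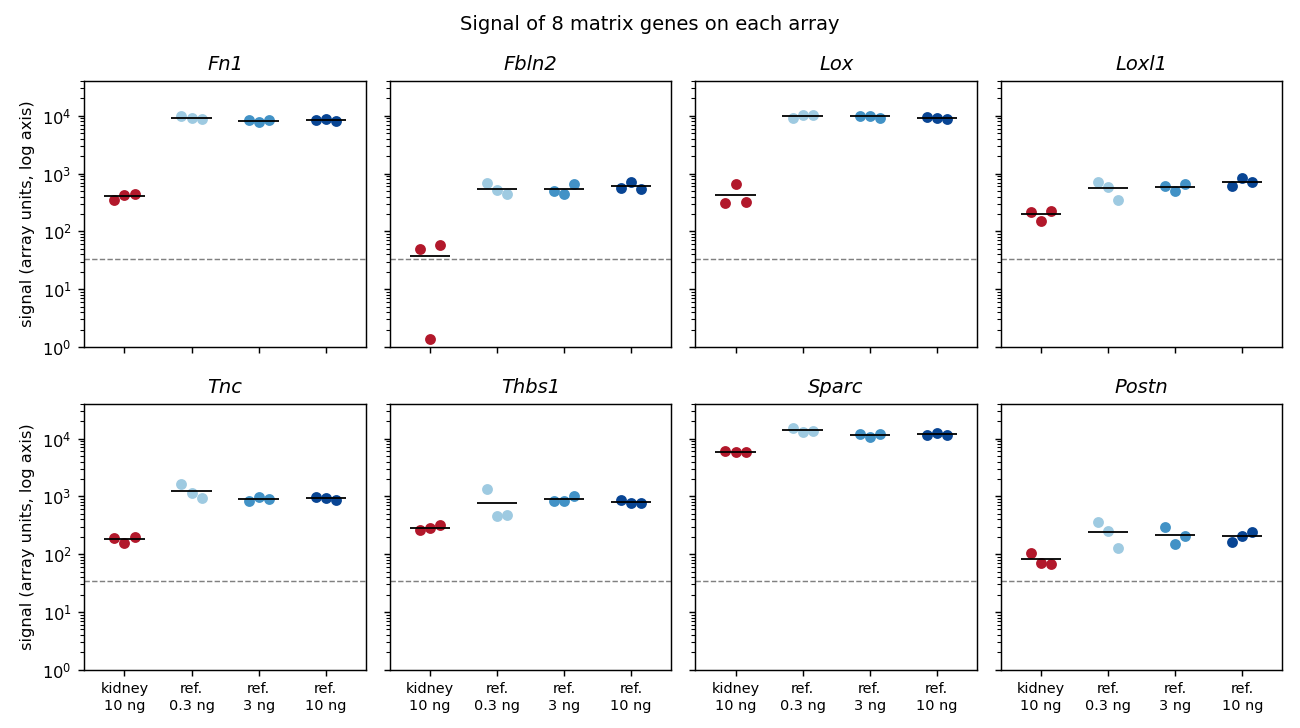
Signal of the representative probe set of each of the 8 genes on each array, on a log axis in array units, with kidney RNA at 10 ng left of reference RNA at 0.3, 3 and 10 ng. Points are single arrays, black bars are means of 3 and the dashed line is the background level of 33.7; the kidney points lie below all reference points in every panel, and Fbln2 has 1 kidney array below the dashed line.

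Among the glycoproteins, Fn1 encodes fibronectin (chromosome 1, 71585473 to 71653280, GRCm38.p6). Its representative probe set 1426642_at read 351.8, 433.6 and 443.5 on the kidney arrays, against 8456.5, 8938.2 and 8272.3 on the 10 ng reference arrays. The kidney arrays were uniformly low, at a mean of 410 ± 50.3 against 8556 ± 344 in the reference (SD, n = 3 each). The log2 fold change was -4.38 (SE 0.143, limma adjusted p = 1.53e-05), 20.9-fold lower. A second Fn1 probe set, 1437218_at, read 13.1, 1.9 and 2.0 in kidney, against 838.4, 729.6 and 886.7 in the reference. All 3 kidney arrays were below background for it, so its change is given as at least 24.2-fold lower (limma adjusted p = 0.000128). With the mean of both probe sets in place of the brighter the Fn1 change was -5.50.

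Fbln2 encodes fibulin-2, which binds fibronectin and elastic fibre proteins (chromosome 6, 91212460 to 91272540). Probe set 1423407_a_at read 50.5, 1.4 and 58.7 in kidney, against 572.0, 723.0 and 533.7 in the 10 ng reference. The groups were far apart, but the kidney arrays disagreed among themselves, with replicate 2 near 0 and the other two above background. Fbln2 also passed the filter only through its reference arrays, while every kidney array of the other 7 representative probe sets exceeded the filter signal of 65.4. Further probe sets of Fn1 (1437218_at), Lox (1448228_at), Loxl1 (1436063_at) and Tnc (1456344_at) were under 65.4 on every kidney array. They too were tested only through the reference, so their lower direction is no separate support. The Fbln2 log2 fold change was -4.54 (SE 0.972, limma adjusted p = 0.00931) and -3.70 with the dim array raised to background. Without kidney replicate 2 the fit gave -3.38, without kidney replicate 3 -5.16, and both were still called. A pseudocount of 16 gave -3.81 and the mean of its probe sets -2.93, again called. Its other probe set, 1438375_at, had a mean of 6.9 in kidney and 30.0 in the reference, failed the filter and was not tested.

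Lox encodes lysyl oxidase (chromosome 18), a copper-dependent enzyme of collagen and elastin cross-linking. The representative 1416121_at read 307.9, 651.8 and 317.0 in kidney, against 9398.4, 9236.0 and 8802.9 in the 10 ng reference. Kidney replicate 2 was above its partners, yet no kidney array approached the reference range. The log2 fold change was -4.50 (SE 0.312, limma adjusted p = 0.000141), 21.5-fold lower. Lox probe set 1448228_at read 34.2, 38.0 and 36.0 in kidney, against 1489.7, 1827.3 and 1450.5 in the reference. On that probe set the kidney arrays sat just above background and agreed closely, and the log2 fold change was -5.31 (SE 0.144, limma adjusted p = 8.33e-06). The remaining 1437903_at averaged 17.0 in kidney and 26.2 in the reference and was not tested. With the mean of the Lox probe sets the change was -3.46.

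Loxl1 encodes a lysyl oxidase relative needed for elastic fibre upkeep (chromosome 9, 58287723 to 58313212). Probe set 1451978_at read 214.3, 153.0 and 228.0 in kidney, against 612.3, 840.4 and 702.5 in the 10 ng reference. All kidney arrays stayed well above background and below the reference range. Its log2 fold change was -1.84 (SE 0.212, limma adjusted p = 0.000877), 3.62-fold lower. A weaker probe set, 1436063_at, read 21.9, 44.1 and 29.9 in kidney, against 139.5, 115.1 and 171.7 in the reference. With 2 kidney arrays under background, its log2 fold change was -2.05, or -1.93 with those raised to background (limma adjusted p = 0.00159).

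Loxl2 encodes another lysyl oxidase (chromosome 14, 69608692 to 69695834), and the annotated Gm21451 lies on the same chromosome (69390417 to 69477453). The shared probe set 1431004_at read 159.6, 231.4 and 133.6 in kidney, against 726.7, 1158.4 and 931.2 in the 10 ng reference. The groups did not overlap, and the log2 fold change of the shared signal was -2.41 (SE 0.272, limma adjusted p = 0.000811). The other shared probe set, 1452436_at, stayed below background on all 12 arrays. Which of the 2 genes gave the signal of 1431004_at cannot be told from these values.

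Of the matricellular genes, Tnc encodes tenascin-C, a protein abundant in embryonic and healing tissue (chromosome 4, 63959785 to 64047015). Probe set 1416342_at read 193.3, 153.5 and 201.8 in kidney, against 983.8, 927.3 and 850.5 in the 10 ng reference. The 2 sets of arrays were tight and separate. Its log2 fold change was -2.31 (SE 0.156, limma adjusted p = 0.000129), 5.03-fold lower. Probe set 1456344_at had 2 of 3 kidney arrays near 0, reading 33.7, 1.4 and 1.5, against 98.8, 145.6 and 87.5 in the reference. Its fitted log2 fold change of -3.45 became -1.68 with the dim arrays raised to background (limma adjusted p = 0.0127).

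Thbs1 encodes thrombospondin-1, which binds cell surface receptors and can activate latent TGF-beta (chromosome 2, 118111876 to 118127133). Probe set 1460302_at read 256.8, 288.8 and 316.9 in kidney, against 873.4, 762.5 and 755.7 in the 10 ng reference. The kidney arrays agreed closely and lay below the reference. The log2 fold change was -1.46 (SE 0.142, limma adjusted p = 0.000469), 2.77-fold lower. The probe set shared with Pald1, 1421811_at, read 4569.8, 5236.2 and 5543.9 in kidney, against 8818.1, 11107.1 and 9482.6 in the reference. Its change was smaller, at -0.94 on the log2 scale (limma adjusted p = 0.00335), and the signal cannot be assigned to Thbs1 alone. Probe set 1450377_at averaged 18.7 in kidney and 57.4 in the reference, with overlapping arrays, and was not tested.

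Sparc encodes osteonectin, a collagen- and calcium-binding protein (chromosome 11, 55394159 to 55420080). Probe set 1448392_at read 5983.9, 5770.8 and 5751.6 in kidney, against 11603.1, 12697.7 and 11462.6 in the 10 ng reference. The kidney arrays were the closest of any member in any group, with an SD of 0.032 on the log2 scale. The log2 fold change was -1.03 (SE 0.117, limma adjusted p = 0.000836), 2.04-fold lower. Probe set 1416589_at read 1932.0, 1783.9 and 1722.9 in kidney, against 5514.9, 6052.5 and 5275.9 in the reference. It changed more, by -1.63 on the log2 scale (SE 0.126, limma adjusted p = 0.00021), 3.10-fold lower. The gap between the Sparc probe sets, 0.60 on the log2 scale, had no overlap between kidney and reference arrays, so the size of the Sparc change depends on the probe set while its direction does not. The dim 1458204_at averaged 37.5 in kidney and 29.7 in the reference and was not tested.

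Postn encodes periostin, which aids collagen assembly and is made by periosteal, valve and wound fibroblasts (chromosome 3, 54359267 to 54391041). Its single probe set, 1423606_at, read 105.6, 70.1 and 67.3 in kidney, against 164.5, 204.5 and 238.3 in the 10 ng reference. The groups did not overlap, with kidney replicate 1 the nearest to the reference range. The log2 fold change was -1.29 (SE 0.235, limma adjusted p = 0.00497), 2.50-fold lower. Its mean was 81.0 ± 21.4 in kidney and 202 ± 36.9 in the reference (SD, n = 3 each).

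Against the reference at 3 ng, where tissue and input change together, the same 8 of 8 genes were called lower, with 31.4% of all genes lower. The median over the 8 was -1.94, beside -0.17 over all genes. Against the reference at 0.3 ng, 7 of 8 were called lower, with 16.7% of all genes lower, and the median was -2.08 beside 0.045. The kidney arrays are shared by the 3 comparisons. Fn1 gave log2 fold changes of -4.50, -4.33 and -4.38 against 0.3, 3 and 10 ng, and Lox -4.63, -4.59 and -4.50. Tnc gave -2.69, -2.27 and -2.31, Sparc -1.25, -1.00 and -1.03, and Postn -1.47, -1.35 and -1.29. Loxl1 gave -1.43, -1.57 and -1.84, and Fbln2 -4.37, -4.34 and -4.54.

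The exception was Thbs1, which gave -1.20, -1.60 and -1.46 and was not called against 0.3 ng (SE 0.478, limma adjusted p = 0.105). Its 0.3 ng arrays read 1356.5, 448.8 and 475.3, so replicate 1 was far above the other two, and all 3 still exceeded the kidney arrays. For some genes the call against 0.3 ng was also lost when 1 array was left out, which leaves fewer arrays in the fit. Loxl1 and Postn were not called when any 1 of the kidney arrays, or 0.3 ng replicate 1 or 2, was left out, with limma adjusted p of 0.0507 to 0.148. Fbln2 was not called without 0.3 ng replicate 1 (limma adjusted p = 0.0547) or replicate 2 (0.0534). Fn1, Lox, Sparc and Tnc were called lower in every one of these refits, which left 4 of 8 genes called at the fewest.

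**Figure D2:**
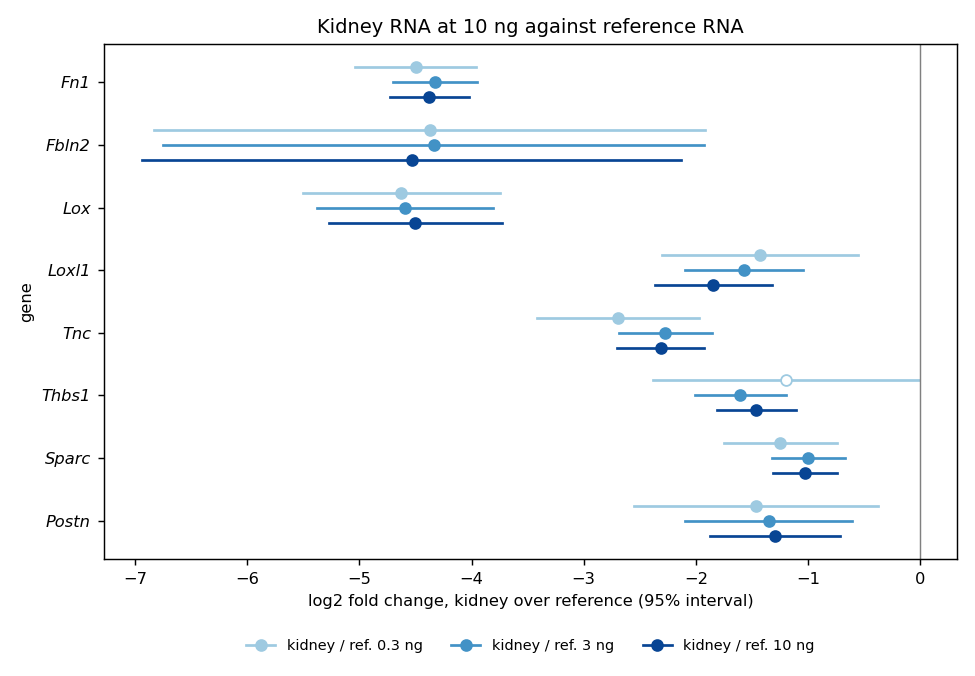
Log2 fold change of each gene in kidney RNA at 10 ng over reference RNA at 0.3, 3 and 10 ng, with 95% intervals from limma; filled points have an adjusted p under 0.05. All points lie left of 0, and the open one is Thbs1 against 0.3 ng at -1.20.

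None of the 8 genes passed limma's test between inputs of the reference RNA. Between 0.3 and 10 ng, 0 of 8 were called and 0 had an unadjusted p under 0.05, where 0.554% of all genes (71 of 12820) were called and 13.4% had an unadjusted p under 0.05. Between 3 and 10 ng 0 of 8 were called and 0 passed unadjusted, with 0% of all genes called and 8.46% passing unadjusted. Between 0.3 and 3 ng 0 of 8 were called and 0 passed unadjusted, with 0.172% of all genes (22) called and 10.9% passing unadjusted. The counts over all genes changed when 1 array was left out, which leaves fewer arrays in the fit. The 71 became 0 without any 1 of the 10 ng arrays, 214 without 0.3 ng replicate 1 and 208 without replicate 3. The 22 became 0 without any 1 array other than 0.3 ng replicate 3, whose removal left 14. The number of member genes called stayed at 0 in each of these refits.

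The intervals show what change the arrays could still hide. Fn1 read 9739.8, 9316.6 and 8816.6 at 0.3 ng and 8313.5, 7973.7 and 8456.6 at 3 ng, beside the 10 ng values above. These levels lie within a narrow band, and the log2 fold change of 0.3 over 10 ng was 0.12 with a 95% interval of -0.39 to 0.63. Lox read 9321.0, 10157.8 and 10411.3 at 0.3 ng and 9966.9, 9975.1 and 9299.4 at 3 ng, and its interval was -0.39 to 0.64. In both genes the 0.3 ng arrays lay among or just above the other reference arrays.

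Sparc was the gene whose 0.3 ng arrays all lay above the 10 ng arrays. Probe set 1448392_at read 14929.4, 13214.2 and 13516.1 at 0.3 ng and 12112.0, 10756.4 and 12198.4 at 3 ng. The 1416589_at probe set did the same, with 7129.3, 7295.7 and 6608.2 at 0.3 ng and 5537.4, 5212.5 and 5608.1 at 3 ng. Neither difference between 0.3 and 10 ng passed the test, at 0.22 (limma adjusted p = 0.657) and 0.32 (limma adjusted p = 0.52) on the log2 scale, and 7.46% of all genes had every 0.3 ng array above every 10 ng array.

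Tnc read 1613.4, 1139.1 and 931.5 at 0.3 ng and 823.7, 971.7 and 891.8 at 3 ng, with a 95% interval of -0.32 to 1.08 for 0.3 over 10 ng. Postn read 363.1, 247.1 and 128.2 at 0.3 ng and 291.3, 152.2 and 204.4 at 3 ng, with an interval of -0.88 to 1.22. Both overlapped the 10 ng range and were scattered at the lowest input. Fbln2 read 685.7, 516.8 and 443.0 at 0.3 ng and 495.7, 452.9 and 651.3 at 3 ng, with an interval of -0.84 to 0.52. Loxl1 read 718.9, 596.6 and 351.6 at 0.3 ng and 611.9, 506.3 and 663.4 at 3 ng, with an interval of -1.26 to 0.42. Replicate 3 was the lowest 0.3 ng array for each of Tnc, Postn, Fbln2 and Loxl1, and also for Fn1. On the representative probe sets Lox was highest on replicate 3, and Sparc and Thbs1 were lowest on replicate 2. Thbs1 read 826.5, 815.2 and 1008.1 at 3 ng, and its interval for 0.3 over 10 ng, -1.43 to 0.90, was the widest of the 8.

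**Figure D3:**
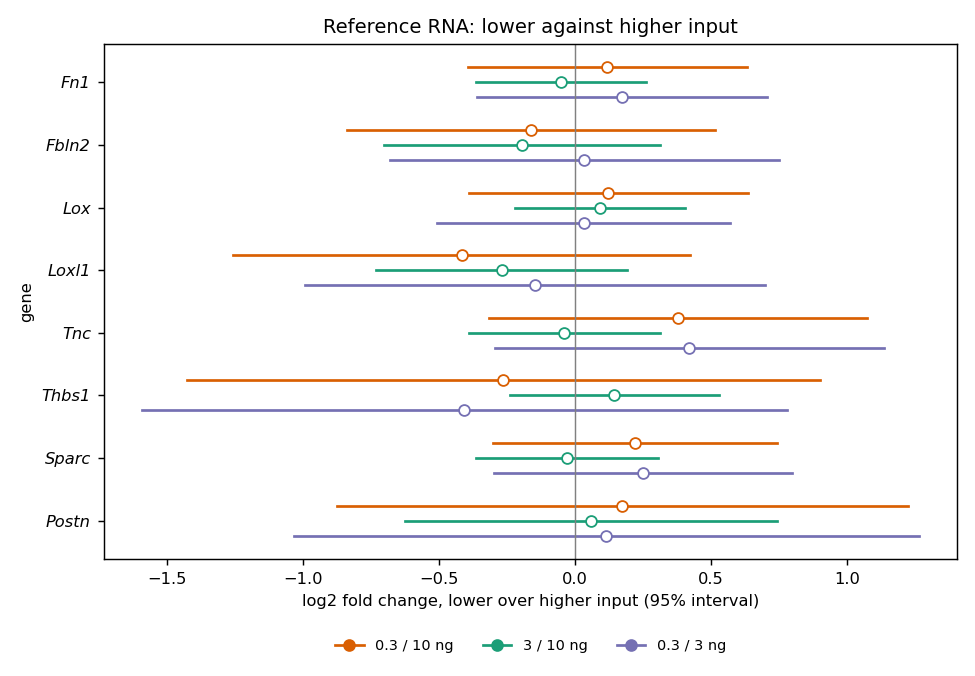
Log2 fold change of each gene in the reference RNA at the lower over the higher of 2 inputs, with 95% intervals from limma. Every point is open (adjusted p of 0.05 or more) and every interval includes 0; Thbs1 has the widest interval for 0.3 over 10 ng, -1.43 to 0.90.

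Some further probe sets differed from the representatives at low input. For Tnc, 1456344_at read 82.6, 104.2 and 44.6 at 0.3 ng, against 98.8, 145.6 and 87.5 at 10 ng. Its log2 fold change of -0.54 and the 0.38 of the brighter Tnc probe set had opposite signs, and neither was called. The gap between the pair on each array did not overlap between the inputs. For Loxl1, 1436063_at read 53.3, 63.0 and 38.2 at 0.3 ng, against 139.5, 115.1 and 171.7 at 10 ng. The arrays did not overlap, with a log2 fold change of -1.41, but the adjusted p in limma was 0.114. The brighter Loxl1 probe set gave -0.42 for the same inputs. On the shared Gm21451 and Loxl2 probe set 1431004_at, the 0.3 ng arrays read 747.3, 622.7 and 321.8, against 726.7, 1158.4 and 931.2 at 10 ng, a log2 difference of -0.79 that was not called (limma adjusted p = 0.411).

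Replicate arrays agreed less at 0.3 ng. The SD of log2 signal over 3 arrays had a median over the 8 genes of 0.255 in kidney, and in the reference of 0.359 at 0.3 ng, 0.145 at 3 ng and 0.111 at 10 ng. Probe sets with signals in the members' range had medians of 0.251 in kidney and 0.490, 0.214 and 0.171 at 0.3, 3 and 10 ng. That range ran from the dimmest to the brightest of the 8 and held 23551 probe sets in kidney and 14914 at 10 ng. The medians are thus not matched to the signal of each gene. The largest SDs were those of Fbln2 in kidney, 2.0, and Thbs1 at 0.3 ng, 0.894. Fn1 had the smallest SD at 0.3 ng, 0.072, and Lox followed at 0.084. Each limma fit assumes 1 spread for both of its groups, and these medians differ between groups, also between kidney and the reference at 10 ng.

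**Figure D4:**
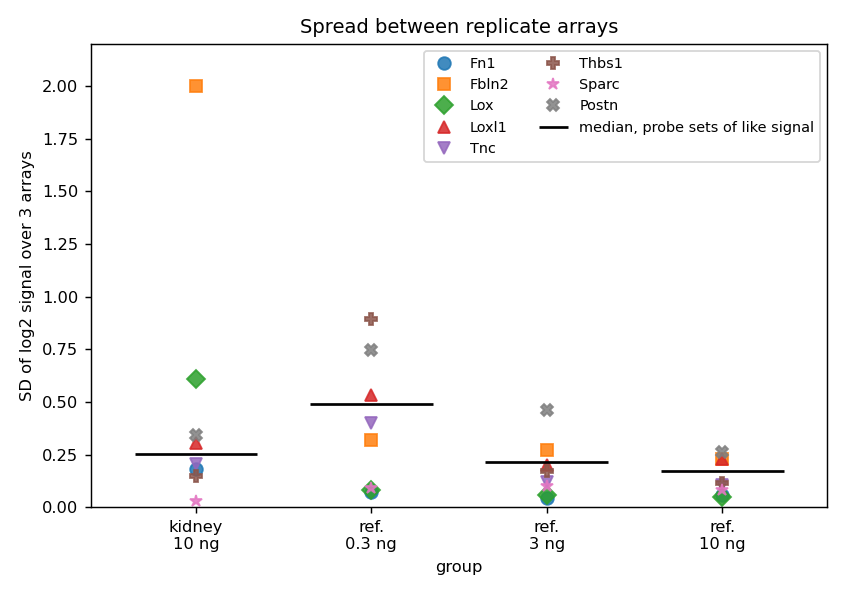
SD of log2 signal over the 3 arrays of a group, for each of the 8 genes (symbols) in kidney RNA at 10 ng and reference RNA at 0.3, 3 and 10 ng; black bars are the median SD of probe sets with signals in the same range. Fbln2 in kidney, at 2.0, and Thbs1 at 0.3 ng, at 0.894, stand above the other genes.

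The wider matrix pathway, in lists drawn up by role, held genes that were lower in kidney RNA and genes that were higher. Of 13 tested collagen cross-linking and modifying enzymes, 10 were lower in kidney and 1 higher at 10 ng, with a median log2 fold change of -1.52. Among all genes tested 35.6% were lower and 27.1% higher, with a median of -0.19. Alpha subunits of prolyl 4-hydroxylase, the enzyme that stabilises the collagen helix, were among the larger changes: P4ha2 averaged 107 ± 17.8 in kidney against 1102 ± 123 in the reference (SD, n = 3 each), a log2 fold change of -3.32, and P4ha1 changed by -2.35. P4ha3, below background on all kidney arrays and tested only through the reference, was at least 2.74-fold lower. P4hb, the beta subunit, was not called, at -0.19 (limma adjusted p = 0.185). Loxl3, a further lysyl oxidase, changed by -2.81. The exception was Tgm2, the transglutaminase that cross-links proteins through glutamine, which rose to 5605 ± 339 in kidney against 2163 ± 486 in the reference, by 1.40 on the log2 scale (limma adjusted p = 0.0022).

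Of 13 other matricellular genes tested, 6 were lower and 4 higher, with a median of -0.39; over all genes 35.6% were lower and 27.1% higher. Ccn3, a regulator of cell growth of the CCN family, changed by -4.32 (88.4 ± 29.4 in kidney, 1787 ± 29.9 in the reference) and its relative Ccn5 by -3.54, or -2.79 with the dim array raised to background. Smoc1, a Sparc-related protein of basement membranes, was at least 2.66-fold lower. Ccn5 and Smoc1, with kidney means of 30.1 and 7 under the filter signal, were tested only through the reference. Sparcl1, a Sparc relative found in vessels, rose to 1236 ± 111 in kidney against 119 ± 14.8 in the reference, by 3.34 on the log2 scale (limma adjusted p = 3.53e-05), the opposite direction to Sparc.

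Elastic fibre and microfibril genes included 6 lower and 3 higher of 13 tested, with a median of -0.87, beside 35.6% lower and 27.1% higher of all genes. Ltbp2, a microfibril protein, had all kidney arrays below background and was at least 23.1-fold lower. Ltbp1, which tethers latent TGF-beta to the matrix, changed by -2.45, and Emilin2 by -2.58. Ltbp2, Emilin2 and Ltbp4, all called lower, had kidney means of 16, 41.4 and 46.9, under the filter signal of 65.4. They were tested only through the reference, so the filter in part set their direction. Fbn2, the fibrillin paralogue of Fbn1, was at least 2.59-fold higher in kidney, with a mean of 87.4 ± 9.21 against 16.2 ± 12.1 in the reference. The Fbn2 mean in the reference at 0.3 ng, 3.6, was under the filter signal as well. If that also held at 3 ng, Fbn2 was tested only through kidney.

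Of 19 tested receptors for these proteins 6 were lower and 6 higher, near the same shares of all genes, with a median of -0.042. The integrin chains Itgb8, Itga1 and Itga8 were higher by 5.19, 4.69 and 4.48 on the log2 scale (Itga8 3.27 with dim arrays raised to background). Itga8 pairs with Itgb1 as a receptor for fibronectin and tenascin-C. Cd44, the hyaluronan receptor, changed by -3.15 (398 ± 72.4 in kidney, 3530 ± 232 in the reference).

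Among matrix maturation proteases and TGF-beta signalling genes, 8 of 15 tested were lower and 3 higher, with a median of -0.52. The shares over all genes were 35.6% lower and 27.1% higher. Without 10 ng reference replicate 2, 7 of the 15 were called in all. Tgfb2 changed by -3.99 and Tgfb3 by -3.25 (-2.37 at the background level), both TGF-beta ligands. Bmp1, the protease that trims procollagen and the lysyl oxidase precursor, changed by -2.77, and its enhancer Pcolce2 by -2.00. Tgfb3, Bmp1 and Pcolce2 had kidney means of 25.2, 45.6 and 32.7, under the filter signal. They were tested only through the reference. Across the reference inputs limma called 0 of the 73 tested genes of these 5 lists in each comparison, with 8 at an unadjusted p under 0.05 for 0.3 against 10 ng, 6 for 3 against 10 ng and 5 for 0.3 against 3 ng, beside 13.4%, 8.46% and 10.9% of all genes. With all 12 arrays in 1 fit, 1 matrix receptor was called for 0.3 against 10 ng and 1 for 0.3 against 3 ng.

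**Figure D5:**
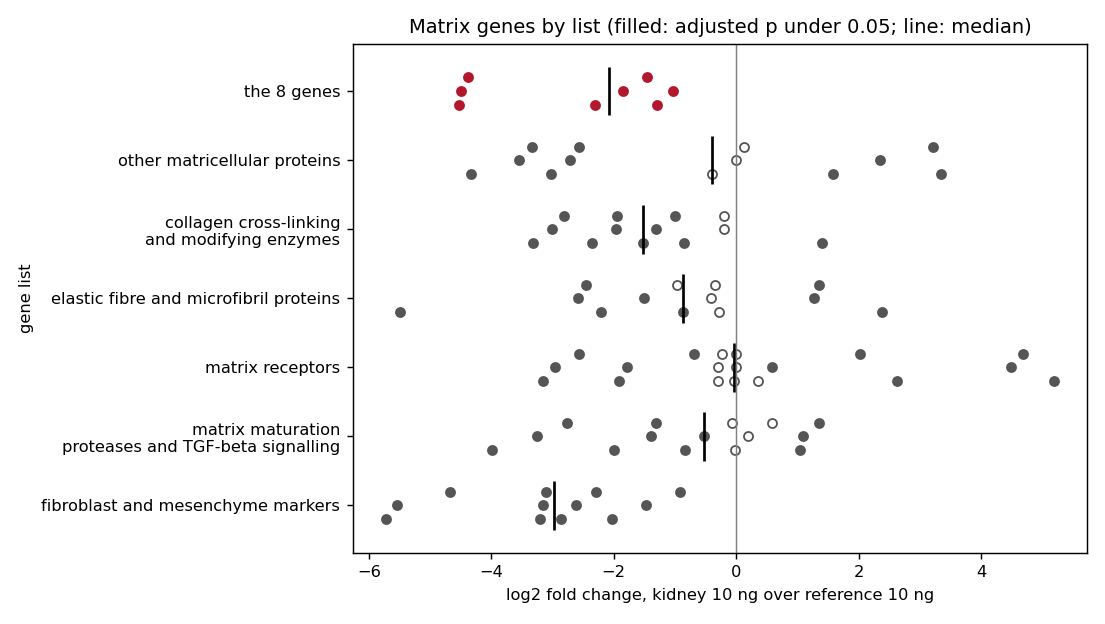
Log2 fold change, kidney RNA over reference RNA at 10 ng, for the 8 genes and for the tested genes of 6 lists; each point is a gene, filled where the limma adjusted p is under 0.05, and black lines are medians. The 8 genes and the fibroblast markers lie wholly left of 0, with medians of -2.08 and -2.98, while matrix receptors spread to both sides.

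Cell type markers moved with the tissue as well. Of 12 tested fibroblast and mesenchyme markers, 12 were lower in kidney RNA at 10 ng, with a median of -2.98, where 35.6% of all genes were lower. The summed signal of the 14 on the array was 12128 to 12654 in kidney against 59977 to 69231 in the 10 ng reference. Twist2 and Fap were below background on all kidney arrays. All 7 tested dividing cell markers were lower, summing to 626 to 833 in kidney against 17314 to 19565 in the reference. Bub1 and Plk1 were below background on all kidney arrays. Like Twist2, they passed the filter only through the reference. The same held for Aurkb, Cdc20 and the fibroblast marker Prrx1. Their kidney means of 31.5, 58.1 and 50.1 lay under the filter signal of 65.4. A call of any of these genes could only have been lower.

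Kidney markers ran the other way: 14 of 14 tubule markers and 9 of 9 endothelial markers were higher in kidney. Over all genes tested 27.1% were higher and 35.6% lower. Umod, Lrp2, Calb1, Slc12a3 and Robo4 lay below background on every reference array. They were tested only through kidney, so a call of these could only have been higher. Of the tubule markers only Slc5a2, at 188.6, had a 10 ng reference mean above the filter signal of 65.4. The endothelial markers Pecam1, Cdh5, Kdr, Emcn and Ptprb also had 10 ng reference means under it. Where the other reference inputs were under it too, such a gene was tested only through kidney. The filter thus in part set the direction behind the 14 of 14 and 9 of 9. The tubule sum was 84374 to 86659 in kidney against 438 to 570 in the 10 ng reference, where 6 of 14 were below background on all arrays, Umod and Lrp2 among them. The endothelial sum was 9180 to 10108 in kidney against 412 to 670 in the reference. Of 5 tested podocyte markers 3 were higher and 1 lower, and of 8 tested smooth muscle, pericyte and mesangial markers 2 were higher and 4 lower. The smooth muscle sum was 10815 to 11145 in kidney against 9790 to 10421 in the reference, but different genes carried it. Rgs5, a pericyte marker, averaged 6787 in kidney and 59.5 in the reference, while Acta2, smooth muscle actin, averaged 1938 in kidney and 6792 in the reference. The part of these differences in cell makeup in the levels of the 8 genes was not tested.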

How the data were processed

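RNA was measured on 12 mouse expression arrays, and the deposited intensity values, 1 per probe set and array, are linear. From the values themselves, the 2% trimmed mean of each array was 500 and the quantiles differed between arrays. Software, background correction, amplification and labelling were not given in the sources used here. Groups, inputs and replicate numbers came from the sample titles.

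Values were used as deposited. A pseudocount of 3.9, the 10th percentile of positive values, was added before log2, which shrinks fold changes of low signals compared with no pseudocount. Readings below background still entered as they were. Log2 fold changes of genes with such readings can therefore be larger than at the background level, as for Fbln2 in kidney against the 10 ng reference (-4.54 against -3.70). Of 45101 probe sets, 64 controls were left out. A probe set was tested where the highest of its 4 group means of log2 values lay above the 40th percentile (a signal of 65.4), which kept 27022. The planned wording did not say which mean. The mean of log2 values was taken after results with arithmetic means had been seen. A probe set under the filter signal in kidney, or in every reference group, was tested only through the other RNA. For such probe sets, in any list, the filter in part sets the direction. Each gene is shown by 1 representative, its brightest probe set (mean of log2 values) among those that name no other gene, which gave 12820 tested genes. Background was 33.7: of all readings of the 27 Bacillus controls, 95% lay below it. A fold against a group wholly below it is given as a lower bound.

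Fits used limma 3.58.1 under R 4.3.3 (lmFit, eBayes; two-sided), 1 per comparison, on its 2 groups of 3 arrays with no covariates. P-values were adjusted by Benjamini-Hochberg over all 27022 probe sets, and calls needed an adjusted p under 0.05. The fits were tested on simulated data. Beyond the members, up to 4 called genes with the largest change were named in each pathway list, and marker lists were described by counts and sums. P4hb and Tgm2, of the cross-linking list, were named outside that rule. The members and lists were chosen with earlier results of these data known. Replicate numbers do not pair the arrays: same-number deviations correlated at -0.06 to 0.02. The number of arrays limits the precision. Alternatives were 2 other pseudocounts, 2 other scalings, 3 other filters, 1 fit of all arrays, array weights, a replicate block, the mean of all probe sets of a gene and leaving out each array. Gene positions and promoters are those of RefSeq, GRCm38.p6; 34945 probe sets carried 1 symbol, 932 several and 9160 none, and a lookup by gene ID, possible for 34741, changed 0 symbols.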

Additional observations from a re-analysis of the deposited data

How the results depend on the processing

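The 8 member genes stayed called lower in kidney RNA against the reference at 10 and at 3 ng under every alternative tried, 136 of 136 values in each comparison. The sizes moved by over 1.5 times for Fn1, Lox and Fbln2: against 3 ng the mean of all probe sets of a gene gave -5.58, -3.39 and -2.51 for these genes, and for Fbln2 a pseudocount of 16 gave -3.62 and leaving out 1 kidney array -4.97 to -3.19. Against 0.3 ng the same mean gave -5.63, -3.55 and -2.37. Against 0.3 ng, 114 of 136 kept their side of the threshold. There the 7 called members became 4 to 7 on leaving out 1 array, 5 with no filter, with array weights or with the replicate block, 6 with a pseudocount of 1 or a filter on all-array means, and 8 with all 12 arrays in 1 fit or with the mean of all probe sets of a gene, where Thbs1 passed (limma adjusted p = 0.021 and 0.0449). A filter on arithmetic group means, added after the data were seen, changed no member call. The replicate block, on numbers that do not pair the arrays, changed no other member call, and left 0 genes called in all between 0.3 and 10 ng and between 0.3 and 3 ng.

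Uncalled log2 changes between inputs changed sign as follows; the cause was not tested. For 0.3 over 10 ng, quantile normalization gave -0.077 for Fn1, -0.091 for Lox and -0.049 for Sparc, median centring gave 0.27 for Fbln2, 0.014 for Loxl1 and 0.17 for Thbs1, and the mean of probe sets gave -0.082 for Tnc; leaving out 1 array gave -0.16 to 0.57 for Postn and -0.78 to 0.014 for Thbs1. For 3 over 10 ng, centring gave -0.0073 for Lox and -0.040 for Postn, the mean of probe sets gave 0.079 for Fn1, -0.069 for Lox, 0.27 for Sparc and -0.058 for Thbs1, and leaving out 1 array gave -0.18 to 0.28 for Postn, -0.061 to 0.030 for Sparc and -0.10 to 0.019 for Tnc. For 0.3 over 3 ng, quantile normalization gave -0.0057 for Fn1 and -0.15 for Lox, centring gave 0.38 for Loxl1 and 0.12 for Thbs1, the mean of probe sets gave -0.13 for Fbln2, and leaving out 1 array gave -0.14 to 0.19 for Fbln2, -0.22 to 0.51 for Postn, -0.36 to 0.15 for Loxl1 and -0.0027 to 0.078 for Lox.

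Over all genes, the 71 called between 0.3 and 10 ng became 18 with quantile normalization, 21 with centring, 22 with no filter, 47 with a filter on all-array means, 27 with array weights and 689 with all arrays in 1 fit; the 22 between 0.3 and 3 ng became 2, 7, 0, 4 and 542 under quantile normalization, centring, no filter, weights and 1 fit, and 0 with the mean of probe sets. The 0 called between 3 and 10 ng became 1 with centring and 3 in 1 fit. For kidney against 0.3 ng, 4815 genes became 2922, 2948 and 2926 without kidney replicate 1, 2 and 3. Centring moved the median change of all genes in kidney against 10 ng to 0.055, against -0.19 as deposited, and the share higher among called genes to 54.6%, against 43.2%; for kidney against 3 ng the share became 61.3%, against 45.7%.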
